A study of Homo sapiens with 8 samples.

Results

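Chromatin bound by the estrogen receptor (ER) was immunoprecipitated from LY2 cells and sequenced (ChIP-seq), and the 493 sites described here are those with a called peak in exactly 1 siCtrl library and exactly 1 siCDK12 library. They were chosen by the measured values: peaks with a q-value under 0.05 in the 4 peak lists were joined into sites wherever they shared 1 bp or more, which gave 25365 sites, and the 493 members make up 1.94% of them. Each member therefore has a peak on both sides of the knockdown but in neither condition a peak in the other replicate. LY2 is an established ER-positive breast cancer line of the MCF-7 lineage with resistance to tamoxifen. All cells were serum depleted without 4-hydroxytamoxifen, transfected for 48 hours with a pool of siRNAs against CDK12 (siCDK12) or with a non-targeting control (siCtrl), and then given 1 µmol/L β-estradiol for 1 hour. Each condition had 2 libraries with a peak list, numbered 2 and 3 for siCtrl and 3 and 4 for siCDK12. Nothing in the labels says whether replicates came from separate cultures, and the peak lists hold no expression values against which the line or the knockdown could be checked.

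ER is a nuclear receptor that, once bound by estradiol, joins DNA as a dimer at estrogen response elements, a pair of inverted GGTCA words with a spacer of 3 bases. It also reaches DNA through other factors, among them AP-1, and forkhead proteins such as FOXA1 open chromatin for it in breast cells. CDK12 is a cyclin-dependent kinase that phosphorylates RNA polymerase II during elongation and is known for its role in the expression of DNA repair genes. Alu elements are short interspersed repeats, present in very many near-identical copies across the human genome, and are rich in gene-dense regions.

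The 3 strongest members of each pair of libraries, 12 in all, held no estrogen response element at their summit. The element was at 1.22% of all members, so its absence from 12 is near that share. Of the 12, 7 held at least 2 words of the Alu consensus, against 34.7% of all members and 22.2% of all merged sites. On chromosome 17 lay 8 and in introns 6, against 14.8% and 40.2% of all members. A local background over 3 times that of their library's lowest level was found at 11. It was found in both libraries at 50.9% of all members. Strength is ranked by the mean percentile of the q-value in a member's 2 lists, and the q-value also chose the members. The median percentile was 83.15 in siCtrl and 87.23 in siCDK12 for members with such a background in both libraries. With it in neither library the medians were 69.74 and 66.81. The background of the 12 is thus tied to the ranking, and their shares are a description without a test.

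Estrogen response elements were rare among the members, and the few that carried one are shown next because they are the members with the sequence ER binds directly. With at most 1 mismatch in the 10 fixed bases of GGTCANNNTGACC, an element lay within 100 bp of the summit of the stronger peak in 6 of 493 members (1.22%, exact 95% interval 0.448 to 2.63). Over all merged sites the share was 1.91%. The 6 elements stand below in capitals with 10 bases of flank on each side, read from GRCh38 on the plus strand, 5′ to 3′, and a substitution names the consensus base, its position from 1 at the left end of the element, and the base of the genome.
chr3:6631423-6631455, no mismatch, nearest gene GRM7: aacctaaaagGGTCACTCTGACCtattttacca
chr1:200749189-200749221, T9G, CAMSAP2 intron 1: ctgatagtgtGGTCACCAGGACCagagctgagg
chr16:17108769-17108801, A5T, summit in XYLT1 exon 12: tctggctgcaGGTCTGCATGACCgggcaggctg
chr20:47934577-47934609, T3C, nearest gene SULF2: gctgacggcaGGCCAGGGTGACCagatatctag
chr20:54509797-54509829, G2C, DOK5 intron 1: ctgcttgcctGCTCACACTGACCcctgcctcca
chr7:99864300-99864332, T3C, CYP3A43 intron 12: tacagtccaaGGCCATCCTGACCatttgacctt

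The 4 pairs of libraries did not contribute equally. The pair of siCtrl replicate 2 and siCDK12 replicate 3 had 176 members, siCtrl replicate 2 and siCDK12 replicate 4 had 158, siCtrl replicate 3 and siCDK12 replicate 3 had 83, and siCtrl replicate 3 and siCDK12 replicate 4 had 76. The lists themselves differed in length, with 12021 peaks used from siCtrl replicate 2, 4955 from siCtrl replicate 3, 4819 from siCDK12 replicate 3 and 5224 from siCDK12 replicate 4. Members took 2.78% and 3.23% of the peaks in the siCtrl lists and 5.37% and 4.48% in the siCDK12 lists. For comparison, 455 sites were called in both siCtrl libraries but not after the knockdown (lost sites), 87 sites had the mirror pattern (gained sites), and 24058 sites had a peak in a single library. A peak in 3 libraries was found at 206 sites and in all 4 at 66. The bars of shared sites show all combinations.

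**Figure D1:**
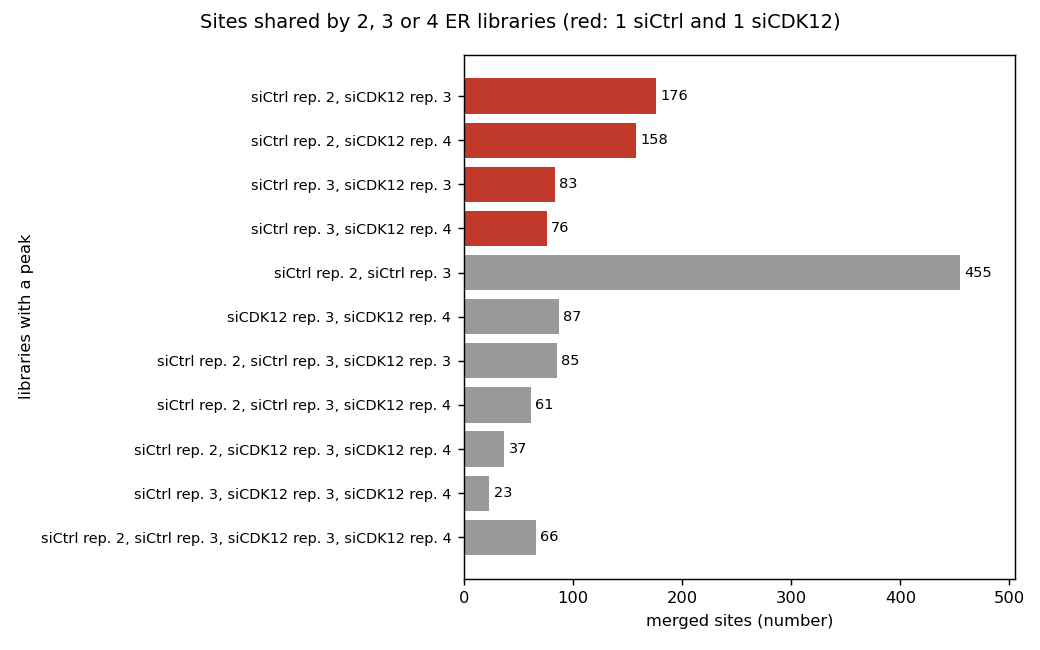
Number of merged sites (horizontal axis) for each combination of 2, 3 or 4 ER libraries with a peak (vertical axis), with the 4 combinations of 1 siCtrl and 1 siCDK12 library in red. The red bars hold 176, 158, 83 and 76 sites, against 455 for the siCtrl pair and 87 for the siCDK12 pair.

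Peak strength was modest, with medians nearly equal on both sides. The deposited fold enrichment is the pileup of fragments over the local background at the summit, and since the q-values that chose the members come from the same peaks, strengths are a description without a test. In the pair of siCtrl replicate 2 and siCDK12 replicate 3, the median fold was 3.60 in siCtrl (range 1.82 to 6.47) and 3.51 in siCDK12 (range 1.78 to 7.47). Between siCtrl replicate 2 and siCDK12 replicate 4 the medians were 3.63 (1.71 to 6.69) and 3.51 (1.80 to 6.35). They were 3.13 (1.74 to 6.03) and 3.20 (1.79 to 5.83) for siCtrl replicate 3 with siCDK12 replicate 3. For siCtrl replicate 3 with siCDK12 replicate 4 they were 3.37 (1.74 to 6.03) and 3.21 (1.77 to 7.79). The ranges of the 2 conditions overlapped in every pair, with the highest fold in siCDK12 in the first and the last of them. Fold enrichment was higher in siCtrl in 271 of 493 members (55.0%), the median log2 ratio of siCtrl over siCDK12 was 0.05, and 490 members lay within a factor of 2 in either direction.

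The q-values sat close to the threshold. The median −log10 q of members was 2.44 in siCtrl and 2.21 in siCDK12, and the median percentile in the full lists was 73.6 and 75.3. Lost sites stood at a median −log10 q of 7.43 and 4.84 in the siCtrl libraries, and sites of a single library between 1.84 and 1.99. A −log10 q of at least 3 on both sides was reached by 52 members, and of at least 5 by 12. The members nearest to the threshold inside it had a lower −log10 q of 1.306, 1.307 and 1.315, and the nearest sites outside it had 1.299, 1.289 and 1.28. A weaker listed peak with a q-value above 0.05 lay in a further library at 34 members (6.90%), and in both further libraries at 3.

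**Figure D2:**
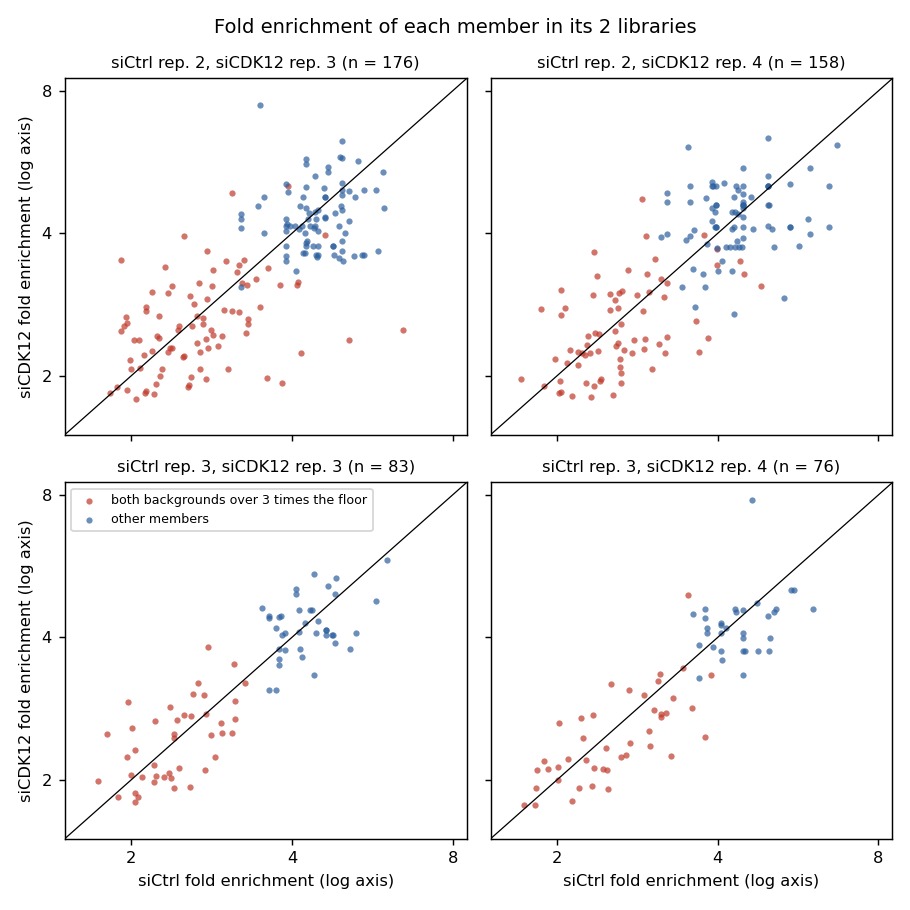
Fold enrichment of each member in its siCtrl library (horizontal, log axis) and its siCDK12 library (vertical, log axis), with a panel for each pair of libraries and the line of equal values. Red points are the 251 members whose local background was over 3 times the library floor in both libraries, and they sit at the lower left with median folds of 2.57 and 2.45, while the other members sit mostly near 4.

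Local background separated the members into a high and a low set. The background at each summit was solved from the deposited fold and p-value and divided by the lowest value shared by at least 50 peaks of the same library, called the floor. Background over 3 times the floor was found for 167 of 334 member peaks in siCtrl replicate 2, 55.0% in siCtrl replicate 3, 53.3% in siCDK12 replicate 3 and 54.3% in siCDK12 replicate 4. In sites of a single library that share was 6.85% to 11.0%, in lost sites 36.6% and 40.8%, and in gained sites 50.6% and 48.3%. Sites in all 4 libraries had it in 51.5% to 63.6% of their peaks and sites in 3 libraries in 69.4% to 77.9%, so the share in members was not the highest. High background was shared by the 2 libraries of a member: 251 members had it in both, 225 in neither and 17 in a single library. On the log2 scale the backgrounds of the 2 libraries followed each other across the 493 members (Pearson r = 0.976, a description, since all points share the same 4 libraries). Within the 251 members of high background r was 0.931, and within the 225 of low background it was 0.542. For 483 members the backgrounds agreed within a factor of 2.

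Members of high and of low background differed in their counts of fragments. With high background in both libraries, the median pileup was 43 fragments in siCtrl and 47 in siCDK12 and the median fold 2.57 and 2.45. With low background in both, the median pileup was 10 and 11 fragments and the median fold 4.41 and 4.29. The 2 libraries' log2 folds were correlated at r = 0.801 over all members, at 0.504 within the high-background set and at 0.136 within the low-background set. Between 7 and 17 fragments lay behind each peak of the low set.

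**Figure D3:**
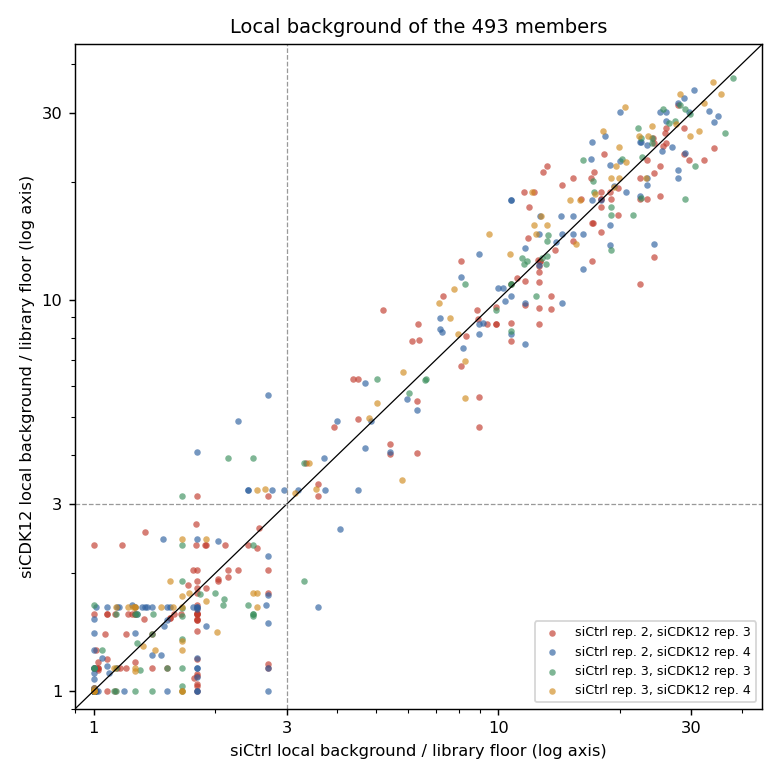
Local background over the library floor for each of the 493 members in its siCtrl library (horizontal, log axis) and its siCDK12 library (vertical, log axis), coloured by pair of libraries, with dashed lines at 3 times the floor. Points run along the line of equal values up to 38.0 in siCtrl and 36.9 in siCDK12, with 251 members beyond both dashed lines.

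The summits of a member's 2 peaks were 49 bp apart by the median (quartiles 18 and 86), and 253 of 493 members (51.3%) had summits within 50 bp of each other. Lost sites had a median of 22 bp and 78.0% within 50 bp, gained sites 44 bp and 54.0%. The overlap of the 2 peaks had a median of 147 bp and was under 50 bp for 20 members. Merged members were 156 to 916 bp wide with a median of 244 bp, and 1 member held 3 peaks.

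By location, members lay mostly outside promoters. The stronger summit was in an intron of a protein-coding gene's canonical transcript in 198 members (40.2%), in an exon in 12, elsewhere in a protein-coding gene in 13, in a noncoding gene in 88 (17.8%) and between genes in 182 (36.9%), by GENCODE release 44. The median distance to the nearest transcription start of a protein-coding gene was 43332 bp. A start within 1000 bp was found for 18 members (3.65%, exact 95% interval 2.18 to 5.71), against 3.49% of all merged sites. Lost sites were at promoters in 37 of 455 cases (8.13%), and members less often (two-sided Fisher's exact test with Benjamini-Hochberg adjustment over 17 tests, odds ratio 0.428, adjusted p = 0.0289). With a −log10 q of 3 or more the call was lost (odds ratio 0.391, Fisher's exact test, adjusted p = 0.416) and without either siCDK12 library (0.409 without replicate 3 and 0.453 without replicate 4), and the direction turned without either siCtrl library, when the class of lost sites is made of a single library. Against gained sites (2 of 87, odds ratio 1.61) and sites of a single library (3.34%, odds ratio 1.10) the promoter share did not pass (Fisher's exact test, adjusted p = 0.853 for both). Sites in 3 libraries were at promoters in 9.71% and sites in all 4 libraries in 7.58% of cases.

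The 5 promoter members with the highest percentiles were near TRIM37, a ubiquitin ligase, USP32, a ubiquitin protease, INTS2, a subunit of the Integrator complex, and BMP7, a bone morphogenetic protein, which had a pair of them. At TRIM37 (chromosome 17, 59013205 to 59013387) the fold was 3.17 in siCtrl replicate 2 and 2.93 in siCDK12 replicate 4. At USP32 (chromosome 17, 60305216 to 60305454) it was 2.74 in siCtrl replicate 3 and 3.02 in siCDK12 replicate 3. At INTS2 (chromosome 17, 61885497 to 61885677) it was 2.21 in siCtrl replicate 3 and 2.70 in siCDK12 replicate 4. All 5 summits fell in introns of a canonical transcript. These were intron 21 of TRIM37, intron 2 of USP32, intron 15 of INTS2 and introns 6 and 3 of BMP7. A start of any annotated transcript of a protein-coding gene counted here, also one inside the gene body. Background at these summits was 8.67 to 31.4 times the floor.

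Chromosomes 20, 17, 3, 7 and 1 held 344 members (69.8%). Chromosome 20 alone had 107 members (21.7%), chromosome 17 had 73, chromosome 3 had 68, chromosome 7 had 55 and chromosome 1 had 41, while chromosomes 10, 22 and Y had none. On those 5 chromosomes lay 44.2% of lost sites, 63.2% of gained sites, 34.9% of sites of a single library, 47.0% of sites in all 4 libraries and 74.3% of sites in 3 libraries. Since the peak calls that chose the members use the local background, these shares are a description without a test.

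**Figure D4:**
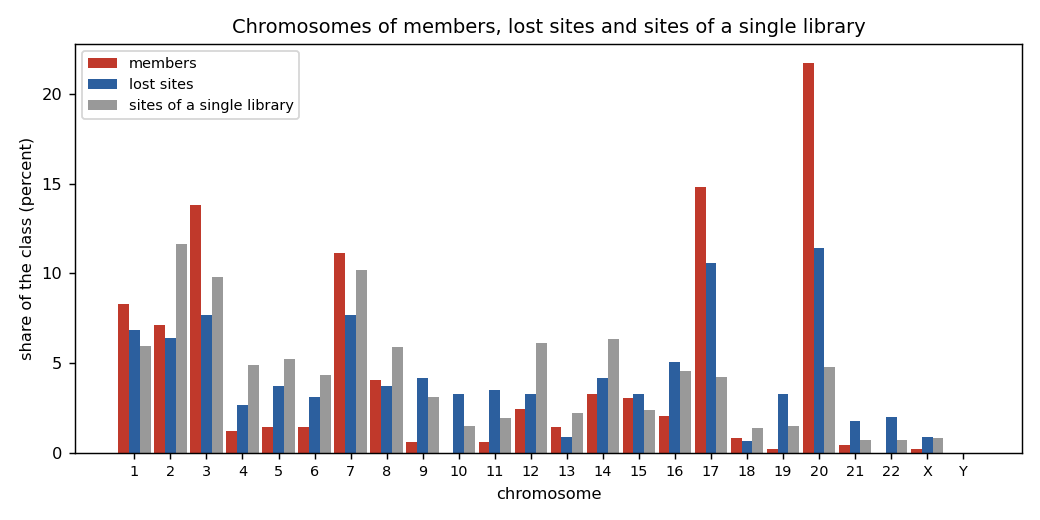
Share of each class of sites (vertical axis, percent) on each chromosome (horizontal axis) for members (red), lost sites (blue) and sites of a single library (grey). Members stand highest on chromosome 20 (21.7%), followed by chromosome 17 (14.8%) and chromosome 3 (13.8%).

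Within these chromosomes the members were packed into a few segments. Counted in bins of 1 Mb, 149 members (30.2%) lay in 5 bins, whereas 224 bins held any member and 169 of them a single one. The bins from 61000001 on chromosome 17 and from 54000001 on chromosome 20 held 41 members each, the bin from 64000001 on chromosome 3 held 31, and those from 53000001 and 47000001 on chromosome 20 held 19 and 17. These 5 bins had 4.40% of all merged sites, 13.6% of lost sites, 20 of 87 gained sites, 3.16% of sites of a single library, 20 of 66 sites in all 4 libraries (30.3%) and 103 of 206 sites in 3 libraries, so the packing was not particular to the members. Of the members, 252 (51.1%) had another member within 100 kb, and 81 (16.4%) had a lost site or a site of all 4 libraries within 10 kb.

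Background in each of these bins was high and alike in all 4 libraries. The median over peaks in the chromosome 17 bin was 23.4 times the floor in siCtrl replicate 2, 23.1 in siCtrl replicate 3, 23.6 in siCDK12 replicate 3 and 24.5 in siCDK12 replicate 4. In the chromosome 3 bin it was 11.9, 11.8, 12.4 and 12.4 in the same order, and in the bin from 53000001 on chromosome 20 it was 26.0, 26.2, 25.9 and 27.4. Segments of chromosomes 1, 3, 17 and 20 are known to be amplified in the MCF-7 lineage. DNA copy number was not measured here, and its part in the background or in the number of members was not tested.

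The genes around the members followed the same segments. The 493 members had 261 nearest protein-coding genes, and 18 genes with at least 5 members each accounted for 194 members. DOK5, an adaptor protein of receptor tyrosine kinases, was nearest to 31 members, ADAMTS9, a secreted metalloprotease, to 26, and BRIP1, a helicase that works with BRCA1 in DNA repair, to 16. BCAS3 was nearest to 14, BMP7 to 13, ZNF217, a zinc finger protein often amplified in breast cancer, to 12, PRMT6, an arginine methyltransferase, to 11 and BCAS1 to 10.

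Gene bodies with 10 kb on either side were searched for 4 lists of genes. A member was found at 166 of 20033 protein-coding genes (0.829%). None of 45 estrogen response genes had a member, a count near that background share. A lost site was found at 9 of the 45, among them GREB1 and NRIP1, classical ER targets, and at 279 of all protein-coding genes (1.39%). The estrogen list was also chosen with earlier results of these data known. It includes NRIP1, FKBP4 and IGFBP4, where the study itself reported reduced ER binding after the knockdown. Its share of lost sites is therefore not independent evidence. Of 25 luminal factors and ER partners, NCOA3 alone had members, and of 21 genes of DNA damage response and homologous recombination, BRIP1 alone. Both genes also had a lost site, as did NBN of the latter list. A gained site was found at 1 gene of each of these lists. It was found at 0 of the 45 estrogen response genes and at 32 of all protein-coding genes. Of 30 genes from segments amplified in the MCF-7 lineage 17 had a member, 13 a lost site and 8 a gained site. However, this list was chosen with the position of the members known and shows nothing beyond that position. It held, among others, ZNF217, BCAS1, BCAS3, DOK5, BMP7, SULF2 and RPS6KB1, the gene of a ribosomal protein kinase.

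NCOA3, also called AIB1, is a coactivator that binds estradiol-bound ER. Its 4 members lay in introns 1 and 2 on chromosome 20, and each had the higher fold in siCtrl. The member from 47533668 to 47533897 had a fold of 3.27 in siCtrl replicate 3 and 2.25 in siCDK12 replicate 4. The member from 47552968 to 47553274 had 2.38 in siCtrl replicate 3 and 2.01 in siCDK12 replicate 3. That from 47604976 to 47605148 had 2.78 in siCtrl replicate 2 and 2.28 in siCDK12 replicate 3, and that from 47619415 to 47619617 had 2.79 in siCtrl replicate 2 and 2.38 in siCDK12 replicate 4. Every one of the 4 pairs of libraries occurred once, backgrounds were 15.0 to 28.3 times the floor, and all 4 windows held at least 2 Alu words while none held an element.

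BRIP1 had 16 members within its body and 10 kb around it, 14 of them in introns. Their folds ran from 1.74 to 2.91 in siCtrl (median 2.31) and from 1.77 to 3.18 in siCDK12 (median 2.20), and the siCtrl value was the higher in 8 of 16. Backgrounds were 15.7 to 36.4 times the floor. The member in intron 7 (61804490 to 61804707) had a fold of 2.52 and a −log10 q of 6.71 in siCtrl replicate 3, and 3.18 and 12.3 in siCDK12 replicate 4. The member in intron 6 (61811245 to 61811507) went the other way, with 2.91 and 12.3 in siCtrl replicate 2 and 2.27 and 5.93 in siCDK12 replicate 4. Of the 16 members, 8 held at least 2 Alu words.

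BCAS3, known from a fusion with BCAS4 in MCF-7 cells, had 14 members, all in introns, with 10 of 14 folds higher in siCtrl and ranges of 1.97 to 3.83 in siCtrl and 1.78 to 3.04 in siCDK12. DOK5 had 9 members, all in introns, with medians of 2.63 and 2.41, and 1 of them carried the element listed for its intron 1. At ZNF217 the 3 members lay in a noncoding gene beside it, with folds of 1.74, 2.08 and 2.75 in siCtrl and 1.98, 2.07 and 2.10 in siCDK12. NTNG1, a netrin family protein on chromosome 1, had 5 members, all higher in siCtrl. Other list genes with at least 5 members went both ways. The siCtrl fold was the higher in 1 of 5 members at USP32, 2 of 7 at BCAS1, 5 of 9 at BMP7 and 6 of 9 at DOK5. Over all members that share was 55.0%.

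The members with the most unequal folds mostly came from the pair of siCtrl replicate 2 and siCDK12 replicate 3. That pair is also the largest, with 176 of 493 members. In intron 2 of NTNG1 (chromosome 1, 107213338 to 107213562) the fold was 6.47 in siCtrl replicate 2, with a −log10 q of 19.9, and 2.50 in siCDK12 replicate 3, a ratio of 2.59. In intron 19 of PTPN22, a tyrosine phosphatase of lymphocytes (chromosome 1, 113820142 to 113820471), and 379 bp from an annotated start of a transcript, the folds were 5.11 and 2.38 in the same libraries. In the other direction, a member nearest to ELMO1 (chromosome 7, 37491199 to 37491536) had 3.48 in siCtrl replicate 2 and 7.47 in siCDK12 replicate 3. The promoter of STMN3, a stathmin family gene (chromosome 20, 63657531 to 63657943), had 1.91 and 3.51 in those libraries. An intergenic member on chromosome 20 (54355687 to 54355936), nearest to DOK5, had 3.83 and 1.93 in the same libraries from 54 and 53 fragments. A member nearest to MMP16 (chromosome 8, 88584702 to 88585136) had 3.52 in siCtrl replicate 2 and 6.08 in siCDK12 replicate 4. In each of these members the higher fold stood at the lower background. Background was 6.33 times the floor in siCtrl and 8.64 in siCDK12 at NTNG1, 5.19 and 9.42 at PTPN22 and 13.2 and 21.98 at the DOK5 member. It was 24.3 and 12.8 at STMN3, 2.70 and 1.15 at the ELMO1 member and 2.66 and 1.66 at the MMP16 member. Since background is the denominator of the fold and was solved from it, the 2 values are tied by definition and were not tested.

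Among the 12 members ranked strongest within their pairs, the fold was higher in siCtrl in 7. The ratio of the siCtrl fold over the siCDK12 fold ran from 0.793 to 1.29. The ends of that range are the BRIP1 member in intron 7 described above and a member in intron 22 of BCAS3 (61243800 to 61244052), with 3.30 in siCtrl replicate 2 and 2.57 in siCDK12 replicate 3. The member nearest to NACA2 (chromosome 17, 61625711 to 61625956) had 3.23 in siCtrl replicate 2 and 3.14 in siCDK12 replicate 3, from 64 and 75 fragments. The member in BRIP1 intron 18 (61689840 to 61690044) had 2.40 in siCtrl replicate 3 and 2.44 in siCDK12 replicate 3. On chromosome 3 from 64929524 to 64929699, in the noncoding gene ADAMTS9-AS2, the fold was 3.30 in siCtrl replicate 3 and 2.98 in siCDK12 replicate 4, with summits at the same base. Away from the packed segments, the intergenic member on chromosome 7 (91624024 to 91624336) had 6.69 in siCtrl replicate 2 and 6.14 in siCDK12 replicate 4, from 16 and 17 fragments at 1.52 and 1.63 times the floor.

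The 6 members with an estrogen response element were weak in 1 of their 2 libraries, with a lower −log10 q of 1.35 to 1.84. The higher −log10 q was 3.90 near SULF2 in siCDK12 replicate 3 and 4.50 in DOK5 in siCDK12 replicate 4. For the rest it was 2.145 to 2.79. The exact consensus on chromosome 3 (member from 6631280 to 6631474, in a noncoding gene, 138645 bp from the start of GRM7, a glutamate receptor) had a fold of 4.78 in siCtrl replicate 2 and 3.75 in siCDK12 replicate 3, with 9 and 10 fragments. In intron 1 of CAMSAP2, a microtubule minus-end protein, the fold was 4.44 in siCtrl replicate 3 and 4.09 in siCDK12 replicate 3. The XYLT1 member had 3.94 in siCtrl replicate 2 and 4.89 in siCDK12 replicate 3, and its element lay just outside the merged peaks. In intron 12 of CYP3A43, a cytochrome P450, the fold was 4.20 in siCtrl replicate 2 and 3.64 in siCDK12 replicate 3. The remaining members, near SULF2 and in DOK5, stood at high background with folds of 2.38 and 2.04 in siCtrl replicate 2 against 3.10 in siCDK12 replicate 3 and 2.69 in siCDK12 replicate 4. By fold, 3 of the 6 were higher in siCtrl and 3 in siCDK12. From the summit of the weaker peak, 4 of the 6 still had the element within 100 bp.

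The element was rarer at members than at lost sites, while no difference passed against gained sites or sites of a single library. It was present at 124 of 455 lost sites (27.3%) and 6 of 493 members (two-sided Fisher's exact test, odds ratio 0.0329, adjusted p = 5.93e-35). Sites of a single library carried it in 1.26% of cases (odds ratio 0.966, Fisher's exact test, adjusted p = 1) and gained sites in 0 of 87, which allows up to 4.15% (odds ratio 2.33 with 0.5 added to each count, Fisher's exact test, adjusted p = 0.853). Sites in all 4 libraries had the element in 16 of 66 cases (24.2%, exact 95% interval 14.5 to 36.4) and sites in 3 libraries in 35 of 206 (interval in percent 12.1 to 22.8), which were not tested against the members. Within the members, 6 had the element only in the summit window and 1 only in a window 1000 bp downstream (two-sided exact McNemar test, adjusted p = 0.425). Pairs with siCtrl replicate 2 had it in 5 of 334 and pairs with siCtrl replicate 3 in 1 of 159 (odds ratio 2.40, Fisher's exact test, adjusted p = 0.853). Pairs with siCDK12 replicate 3 had it in 5 of 259 and pairs with siCDK12 replicate 4 in 1 of 234 (odds ratio 4.59, Fisher's exact test, adjusted p = 0.618). Lost sites were defined by 2 siCtrl libraries, so the difference from them holds for these classes only: without siCtrl replicate 2 or 3 the odds ratio was 3.45 or 3.41.

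The AP-1 word (TGACTCA or TGAGTCA, a single word read on both strands) was found at 20 members (4.06%, exact 95% interval 2.49 to 6.20), against 3.80% of all merged sites. It was found at 6.59% of lost sites, 3.45% of gained sites and 3.75% of sites of a single library, and none of the 3 comparisons passed (odds ratios 0.599, 1.18 and 1.08, Fisher's exact test, adjusted p = 0.376, 1 and 0.853). The downstream windows of the members held it in 13 cases (exact McNemar test, adjusted p = 0.618). Of the 3 strongest members with the word, in BRIP1, SOS2 and PRICKLE2-AS1, the last 2 are shown with 12 bases of flank (GRCh38, plus strand), capitals marking the word.
chr14:50179441-50179471, SOS2 intron 7: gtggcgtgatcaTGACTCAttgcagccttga
chr3:64068275-64068305, PRICKLE2-AS1: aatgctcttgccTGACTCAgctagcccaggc

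The member in BRIP1 intron 18 had a fold of 2.40 in siCtrl replicate 3 and 2.44 in siCDK12 replicate 3. In intron 7 of SOS2, which encodes an exchange factor of RAS, the fold was 5.50 in siCtrl replicate 3 and 5.03 in siCDK12 replicate 4, at a background of 1.65 and 1.34 times the floor. The member in PRICKLE2-AS1 had 2.65 in siCtrl replicate 2 and 3.02 in siCDK12 replicate 4. Of the 20 members with the word, 7 also held at least 2 Alu words in the same window. The BRIP1 member held 2 Alu words, the SOS2 member 1 and the PRICKLE2-AS1 member 0.

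The forkhead word (TGTTTAC or TGTTTGC, both strands) was found at 17 members (3.45%), against 4.59% of all merged sites. Lost sites had it in 4.84%, gained sites in 1.15% and sites of a single library in 4.60% of cases, and none of the 3 comparisons passed (odds ratios 0.703, 3.07 and 0.741, Fisher's exact test, adjusted p = 0.618, 0.846 and 0.618). In the downstream windows it was found 29 times (5.88%), more often than at the summits themselves, without passing (exact McNemar test, adjusted p = 0.376). All merged sites had it in 6.265% of downstream windows, also above their share at the summit, so this was not particular to the members.

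Of the features searched, Alu words were the most frequent at the summits. Windows of 100 bp either side of the summit were searched on both strands for 11 words of the Alu consensus that hold no CpG: TGTAATCCC, AGCACTTTG, TTTGGGAGG, GTGAAACCC, CTCTACTAA, AAAAATACA, TCCCAGCTA, GGAGGCTGA, TGCAGTGAG, CACTGCACT and CCAGCCTGG. Some overlap by a few letters in the repeat. The search was set up after member sequences had been read, so its shares are given with exact 95% intervals and no test. At least 2 of the words stood at 171 of 493 members (34.7%, 30.5 to 39.1), against 22.2% of all merged sites. Windows of the same length centred 1000 bp downstream and upstream of the members held them in 12.6% and 14.6% of cases.

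Members held Alu words in each of the 4 pairs of libraries and at both levels of background. The share was 33.5%, 38.6%, 28.9% and 35.5% in the pairs in the order given above, with intervals that overlap. It was 35.9% (29.9 to 42.1) for the 251 members of high background and 34.7% (28.5 to 41.3) for the 225 of low background, and 34.9% inside the 5 packed bins against 34.6% outside. Gained sites had 36.8% (26.7 to 47.8), sites in 3 libraries 28.2% (22.1 to 34.8), sites in all 4 libraries 13.6% (6.43 to 24.3), sites of a single library 22.1% (21.6 to 22.6) and lost sites 11.4% (8.65 to 14.7). Among lost sites with an estrogen response element 1 of 124 held 2 Alu words, and among those without it 51 of 331 (15.4%). None of the 6 members with an element held a single Alu word. Reads were 50 bases long, and how reads with several possible positions were treated is not given in the sources used here. Their part in these shares was not tested.

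**Figure D5:**
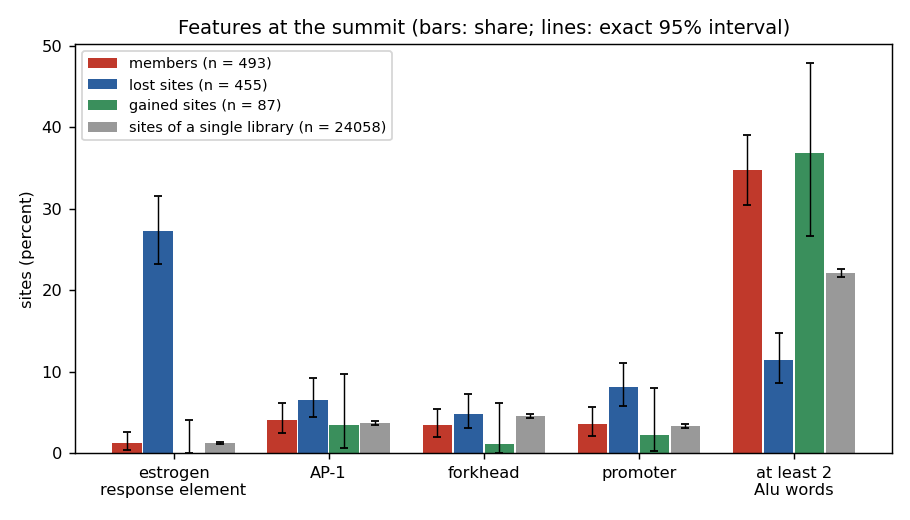
Share of sites (vertical axis, percent) with each feature at the summit of the stronger peak for members (red), lost sites (blue), gained sites (green) and sites of a single library (grey), with exact 95% intervals that cover counting error only. Members stand at 1.22% for the estrogen response element where lost sites reach 27.3%, and at 34.7% for Alu words where lost sites reach 11.4%.

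The median GC content of the windows was 50.7% in members (quartiles 48.3 and 53.7), 52.2% in lost sites, 51.7% in gained sites, 49.3% in sites of a single library, 52.2% in sites in 3 libraries and 55.0% in sites in all 4 libraries. Median GC was 51.7% in members of high background and 50.2% in members of low background. The median of the sites in all 4 libraries lay above the upper quartile of the members.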

How the data were processed

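Measurements came from the peak lists of 4 ER libraries. The inputs and the reads themselves were not used here. The authors filtered 50-base single-end reads, mapped these with BWA-MEM (GRCh38) and ran MACS2 in narrow mode on every library. The deposited columns are a score, a fold ratio of pileup over local background, −log10 p-values, −log10 q-values and the summit offset. Values are not normalized between libraries, and whether the inputs served as background is not given in the sources used here. Between 20.4% and 28.0% of the deposited peaks had a q-value above 0.05 and were left out.

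Merging used 1 bp of overlap and left out sequences other than chromosomes 1 to 22, X and Y. Features were searched within 100 bp of the stronger summit. Promoters were searched within 1000 bp of the start of any transcript of a protein-coding gene in GENCODE release 44. A whole-number pileup and a background were found that give both the deposited fold, with 1 added to each, and the Poisson p-value. Depth is known only through these pileups. Tests across sites were Fisher's exact (two-sided) between classes and exact McNemar within members, with Benjamini-Hochberg adjustment over 17 tests. Sites are not replicates of a condition, so these p-values hold for the sites of these 4 libraries. Intervals are exact (Clopper-Pearson) and cover counting error only. Named sites were the 3 strongest of each pair, those with an element, those at list genes, the 5 strongest at promoters and the 3 highest and lowest fold ratios. The 4 strongest of low background and the 3 strongest with an AP-1 word were added after values were seen. The members and lists were chosen with earlier results of these data known. A planned comparison of annotated repeats was not run because the reference used here carries no repeat marks. The sequences around the summits of the strongest members are not reported here. Functions were tested on simulated data. Software was SciPy 1.17.1, pandas 2.3.3, numpy 2.4.6, pysam 0.24.0 and matplotlib 3.10.9 under Python 3.11.15.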

Additional observations from a re-analysis of the deposited data

How the results depend on the processing

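The number of members depended on the threshold and on the libraries. With sites and classes rebuilt from the peaks that remain, it was 84 at a −log10 q of at least 3 and 31 at 5, and 293 to 480 with each library left out in turn, against 493. Leaving aside the Alu words, 96 of 145 alternative values counted as unchanged. For a test this meant the same direction and side of the threshold. For the number of members the bounds were wide. Both 369 with an equal number of peaks per library and 686 with peaks as deposited counted as unchanged. The low share of elements against lost sites kept its call in all alternatives except those without a siCtrl library (0.00916 to 3.45 over the 4 libraries left out). By construction, lost sites then need a single library and number 4560 without replicate 2 and 11436 without replicate 3, and members include sites of both siCtrl libraries. The promoter call against lost sites was lost at a −log10 q of 3 (0.391) and ranged from 0.409 to 1.95 with libraries left out, for which the cause was not tested.

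With all libraries kept, the other values that changed side or direction were odds ratios near 1 or from few sites. None of these comparisons was called at the settings used above. Larger shifts came from leaving out a library and are given below. For the element against gained sites they were 0.533 without mismatch, 0.890 at 50 bp and 0.183 at a −log10 q of 3. Against sites of a single library they were 1.88 without mismatch, 1.02 at 250 bp, 1.25 over the whole site and 1.44 for peaks as deposited. Between pairs with siCtrl replicate 2 and 3 they were 0.475 at 50 bp, 0.468 at 250 bp, 0.630 over the whole site, 0.589 at a −log10 q of 3 and 0.616 as deposited. For AP-1 they were 0.970 and 0.828 at 50 and 250 bp and 0.557 at a −log10 q of 3 against gained sites, and 0.940 at 250 bp and 0.269 at a −log10 q of 3 against sites of a single library. The forkhead word gave 0.704 at 50 bp and 0.519 at a −log10 q of 3 against gained sites. Promoters gave 0.859 at 2500 bp and 0.977 as deposited against sites of a single library, and 0.700 at a −log10 q of 3 against gained sites.

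With each library left out, the element ranged from 0.495 to 34.6 against gained sites and from 0.215 to 18.0 against sites of a single library, past the threshold only without a siCtrl library. AP-1 ranged from 0.375 to 1.15, 0.777 to 1.64 and 0.620 to 1.36 against lost sites, gained sites and sites of a single library, the forkhead word from 0.713 to 1.35, 0.882 to 8.59 and 0.766 to 1.65, and promoters from 1.13 to 2.10 against sites of a single library, past the threshold without siCtrl replicate 2 or 3.

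The Alu share of members, an alternative set chosen after seeing the data, was 41.8% with 1 word, 26.8% with 3, 20.7% at 50 bp, 39.3% at a −log10 q of 3 and 27.0% without siCtrl replicate 2. No paired analysis was possible because siCtrl and siCDK12 have a single number, 3, in common. The planned repeat comparisons were not run. Peaks of low-background members rest on 7 to 17 fragments each, which limits any comparison of their 2 libraries.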
